A study of Mus musculus with 5 samples.

Results

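The constitutive proteasome subunits were followed across 5 samples of mouse bone marrow cells. They were taken as every probe set whose gene symbol in the platform annotation begins with Psma, Psmb, Psmc, Psmd, Psme or Psmf, leaving out the immunoproteasome genes Psmb8, Psmb9 and Psmb10 and the activator gene Psme1. This gave 48 probe sets of 38 genes among 12422 non-control probe sets. The table names 8251 genes in all by probe sets with a single symbol. Of the 38 genes, 36 encode proteasome subunits, their assembly chaperones or activators, and the remaining symbols, Psmc3ip and Psme3ip1, belong to other proteins that are named after a proteasome gene. No probe set with a single symbol was listed for Psmf1, and another 2 probe sets were listed for both Psme2 and Psme2b and are described apart.

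All samples formed 1 group: total RNA of bone marrow progenitors of dendritic cells, positive for the receptor tyrosine kinase FLT3 and the myeloid integrin chain CD11b, on 1 array per sample. The samples are numbered 1 to 5 as in their titles. The labels give no strain, age, treatment or pooling, and do not say whether the samples came from separate animals, so p-values measure only the spread between these samples, which may be technical. Values are scaled array intensities (signals) with a common array median of 103.4. With no second group, the data show how the signals of subunit genes ranked on each array and how far the samples differed.

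The proteasome degrades proteins marked with ubiquitin. Its core particle is a barrel of stacked rings: the outer alpha rings (Psma genes) gate entry, and the inner beta rings (Psmb genes) carry the proteolytic sites. The regulatory particle caps the barrel. Its base holds a ring of ATPases (Psmc genes) that unfold substrates, and its lid (most Psmd genes) removes ubiquitin chains. In cells of the immune system, interferon can lead cells to replace the catalytic beta subunits by the immunoproteasome forms, which favour peptides for MHC class I. The transcription factor Nrf1 (Nfe2l1) raises proteasome genes together when proteasome activity is short, by way of antioxidant response elements.

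The arrays were not alike in scale or in RNA quality measures. Medians of the deposited values ran from 66.5 to 81.2 in samples 2 to 5, against 392 in sample 1. The ratio of 3' to 5' signal of the actin control was 1.08 in sample 1 and 2.55 to 5.20 in the others, that of the Gapdh control 0.896 and 1.06 to 4.52. For transferrin receptor it was 3.14 in sample 1 and 3.77 to 16.7 in the others. Of the gate and progenitor markers, 5 of 6 were above the array median on all 5 arrays, including Flt3 and Itgam, which encode FLT3 and CD11b. So were 4 of 4 neutrophil genes (Mpo, Elane, Ltf and S100a8) and 1 of 3 T and NK cell genes (Cd28). None of the B cell genes (0 of 3), erythroid genes (0 of 2) or genes of mature dendritic cells (0 of 4) were. The summed signal of the neutrophil genes was lowest in sample 1, at 29942, and between 51385 and 105081 in samples 2 to 5. In samples 2 to 5 most of that sum was S100a8, which had 9540.2 in sample 1 and 41773 to 82007 in the others. The other genes did not follow it: Elane, Ltf and the stronger probe set of Mpo were lowest in sample 2. Elane was highest in sample 1, at 10647 against 2027 to 7356. In such bulk RNA, fewer cells of a type and less RNA per cell cannot be told apart.

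The promoters shown next are those of the catalytic genes Psmb5 and Psmb6 and of 5 genes of the regulatory particle, picked after their values were seen: Psmc1, Psmd4 and Psmd13 were highest in sample 1, and Psmc6 and Psmd12 were highest in sample 3 and low in samples 1 and 5. They are RefSeq sequences of build GRCm38.p6, from 250 bases before to 50 after the start of the gene, 5' to 3' on the strand of the gene. Capitals mark matches on either strand to TGACNNNGC, the core of the antioxidant response element, to CCAAT, the CCAAT box, and to CCGGAAG, a core bound by ETS factors. No base in these windows belonged to more than 1 match.
Psmb5, chr14:54617946-54618245, - strand: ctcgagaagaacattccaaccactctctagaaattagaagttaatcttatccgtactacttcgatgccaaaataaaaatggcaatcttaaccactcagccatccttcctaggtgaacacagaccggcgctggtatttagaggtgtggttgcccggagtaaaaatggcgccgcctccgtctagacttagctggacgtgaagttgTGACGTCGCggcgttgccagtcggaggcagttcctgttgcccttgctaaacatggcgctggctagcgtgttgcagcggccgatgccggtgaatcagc
Psmb6, chr11:70525107-70525406, + strand: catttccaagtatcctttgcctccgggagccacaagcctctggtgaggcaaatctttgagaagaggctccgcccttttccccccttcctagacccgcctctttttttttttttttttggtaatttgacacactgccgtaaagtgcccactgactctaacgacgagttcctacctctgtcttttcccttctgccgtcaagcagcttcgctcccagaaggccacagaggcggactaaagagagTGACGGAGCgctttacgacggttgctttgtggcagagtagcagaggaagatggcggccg
Psmc1, chr12:100109952-100110251, + strand: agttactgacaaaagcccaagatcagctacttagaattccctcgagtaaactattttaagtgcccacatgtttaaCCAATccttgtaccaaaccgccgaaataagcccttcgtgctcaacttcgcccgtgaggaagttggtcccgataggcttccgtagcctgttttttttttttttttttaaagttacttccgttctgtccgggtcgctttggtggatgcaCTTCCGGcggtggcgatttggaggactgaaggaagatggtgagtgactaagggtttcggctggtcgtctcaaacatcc
Psmd4, chr3:95042565-95042864, - strand: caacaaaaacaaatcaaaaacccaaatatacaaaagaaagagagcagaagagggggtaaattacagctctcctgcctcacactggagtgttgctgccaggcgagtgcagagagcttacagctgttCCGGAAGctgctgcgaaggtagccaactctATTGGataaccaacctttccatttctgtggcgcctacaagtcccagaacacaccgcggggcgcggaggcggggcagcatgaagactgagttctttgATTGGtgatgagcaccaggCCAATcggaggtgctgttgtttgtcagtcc
Psmd13, chr7:140882144-140882443, + strand: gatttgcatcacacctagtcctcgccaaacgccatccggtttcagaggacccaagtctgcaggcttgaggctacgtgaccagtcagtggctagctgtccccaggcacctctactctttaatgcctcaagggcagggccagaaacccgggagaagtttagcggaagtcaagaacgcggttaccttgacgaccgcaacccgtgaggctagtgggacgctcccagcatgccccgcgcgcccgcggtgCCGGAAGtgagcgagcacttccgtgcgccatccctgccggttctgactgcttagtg
Psmc6, chr14:45329574-45329873, + strand: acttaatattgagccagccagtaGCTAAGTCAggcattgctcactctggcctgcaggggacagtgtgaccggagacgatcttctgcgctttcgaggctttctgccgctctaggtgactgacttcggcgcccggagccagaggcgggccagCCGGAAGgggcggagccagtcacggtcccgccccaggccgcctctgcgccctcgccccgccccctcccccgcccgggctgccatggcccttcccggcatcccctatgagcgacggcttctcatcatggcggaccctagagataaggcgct
Psmd12, chr11:107479278-107479577, + strand: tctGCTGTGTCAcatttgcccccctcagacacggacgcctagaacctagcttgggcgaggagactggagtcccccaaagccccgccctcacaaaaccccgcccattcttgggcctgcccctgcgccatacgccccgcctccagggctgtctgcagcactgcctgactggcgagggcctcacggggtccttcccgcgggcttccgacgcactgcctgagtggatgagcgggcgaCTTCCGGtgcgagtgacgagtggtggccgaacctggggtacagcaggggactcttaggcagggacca

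Of the 38 genes, 32 had at least 1 promoter window, and some, such as Psma6 and Psmc2, had more than 1. Over all genes there were 32851 windows for 27025 genes. A gene was counted for a motif if any of its windows held it. The ETS core CCGGAAG was found in 14 of these 32 genes (43.8%), Psmc3ip and Psme3ip1 among them, against 9.93% of 27025 genes with a window and 22.7% of the 3935 genes that also had a tested probe set, meaning one with a mean log2 signal above the median of all means. Of the printed windows, those of Psmc1, Psmd4, Psmd13, Psmc6 and Psmd12 hold it. Psmd1, also highest in sample 1, and Psmd14, also highest in sample 3, had windows without it, which are not printed. Its first base lies at position -28 from the start in Psmc1, -6 in Psmd13 and -17 in Psmd12, farther out in Psmd4 (-125) and Psmc6 (-100). The antioxidant response element core TGACNNNGC was found in 6 of 32 genes (18.8%), against 3781 of all 27025 genes and 17.3% of those with a tested probe set. The genes were Psmb5, at position -47, Psmb6, at -9, and Psmc6, Psmd12, Psmd9 and Psme4. A CCAAT box stood in 14 of 32 genes (43.8%), against 41.1% of all genes and 43.4% of those with a tested probe set, and a TATA box (TATAAA) in 3 of 32 (9.38%), against 15.7% and 9.28%. A match is a description of the letters and does not show that a factor binds there.

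Proteasome probe sets mostly had signal above the array median. Counted were probe sets with more signal than the median of each of the 5 arrays, which held for 38 of 48 members (79.2%) and for 36.7% of all non-control probe sets. Above the 75th percentile of every array were 32 of 48 members (66.7%), against 17.4% of all probe sets. At least 1 probe set above the median on all arrays was found for 34 of the 38 genes, against 44.7% of all 8251 named genes. It was found for every measured gene of the alpha ring (7 of 7), the beta ring (7 of 7) and the lid (8 of 8), and for 5 of 6 ATPase genes. The remaining 4 genes were the ATPase gene Psmc4, the base gene Psmd2, the chaperone gene Psmd10 and Psmc3ip. The limit is a rank among the probe sets of an array, so it says nothing on whether a transcript was there or not.

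**Figure D1:**
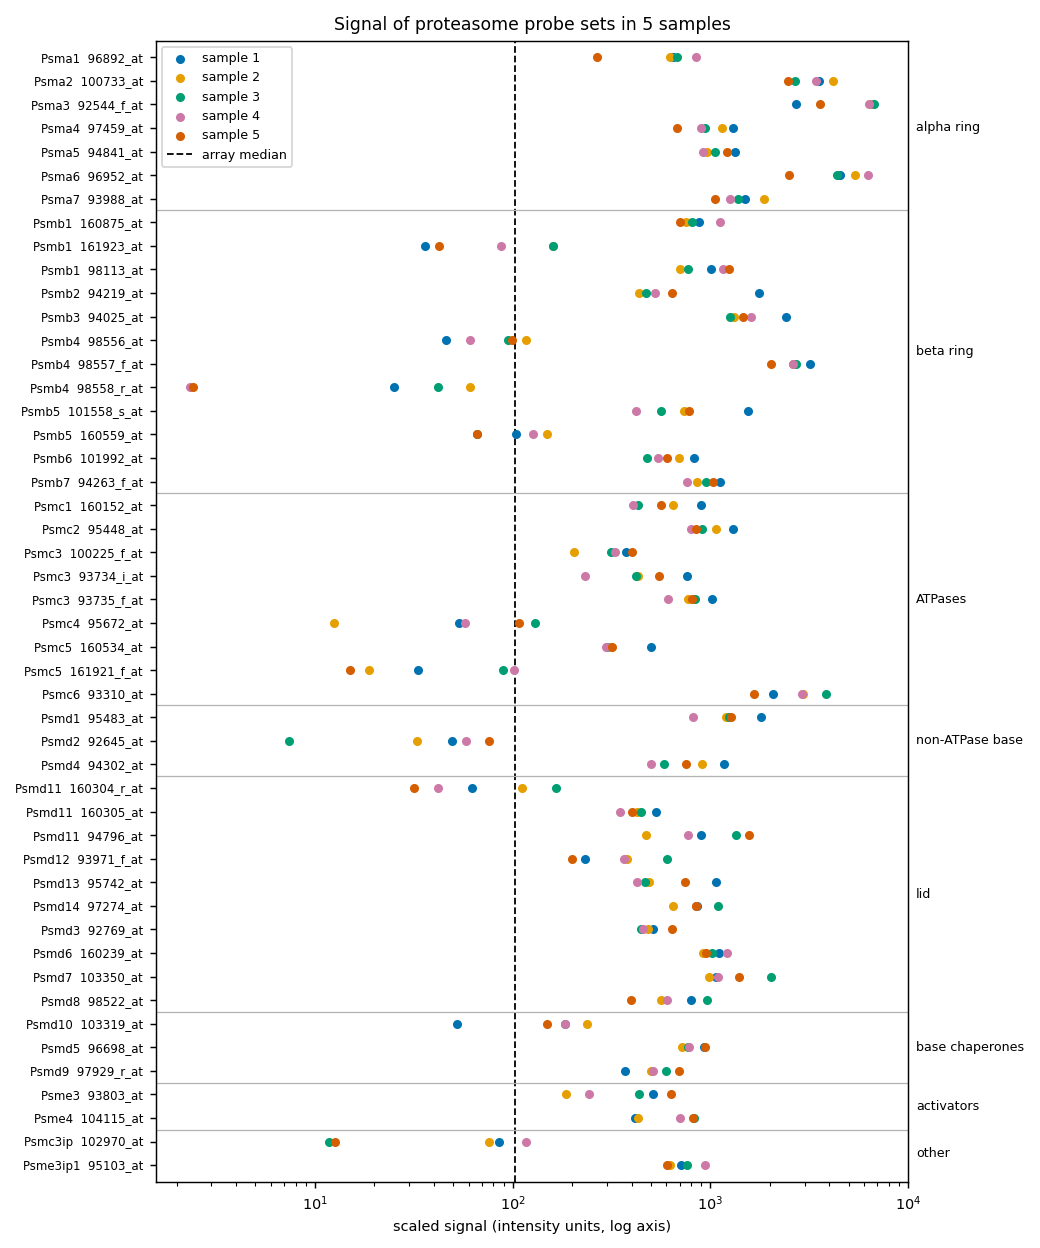
Scaled signal on a log axis for each of the 48 probe sets, grouped by their place in the proteasome, with 1 point per sample and the array median of 103.4 as a dashed line. Members lie to the right of the line on all 5 arrays in 38 of 48 rows; the points to its left belong to weak extra probe sets of 5 genes and to Psmc4, Psmd2, Psmd10 and Psmc3ip.

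The alpha ring lay above the array median throughout. Psma1 had signals of 649, 628, 675, 842 and 268 in samples 1 to 5 (mean 612 ± 210.3, SD, n = 5). Sample 5 was low, past the 95% limit of Dixon's test on log2 signals (limit 0.71), while the other samples lay close together. Such a sample was found in 3 of 40 tested members, against 6.12% of all tested probe sets, so the count is near that of the whole array. Psma3 had 2719.5, 6526, 6741, 6318 and 3597 in samples 1 to 5 (5180.4 ± 1878), so that samples 1 and 5 were low and samples 2 to 4 close to each other. Psma6 had 4543, 5382, 4375, 6234 and 2506 (4608 ± 1389), again lowest in sample 5. The other alpha subunits had smaller SDs of log2 signal, of 0.23 to 0.36. Psma2 averaged 3261 ± 687, Psma4 993 ± 238, Psma5 1099.8 ± 177 and Psma7 1412 ± 301; of these, Psma5 alone was not lowest in sample 5. Of the 7 alpha probe sets, 5 were lowest in sample 5, against 23.8% of all tested probe sets. Above its own mean there was 1 of 7, against 43.5% of all tested.

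In the beta ring, the 3 genes with proteolytic sites each had a probe set above the array median in every sample. Psmb5, the chymotrypsin-like subunit, had 1556, 732, 564, 423 and 784 in samples 1 to 5 (812 ± 439.7, SD, n = 5), with sample 1 above all others. Psmb6, the caspase-like subunit, had 829.9, 696, 476, 541 and 605 (629.5 ± 138), and Psmb7, the trypsin-like subunit, 1115, 857, 955, 764 and 1030.5 (944 ± 138). By these probe sets each was highest in sample 1, by a wide margin in Psmb5 and a narrow one in Psmb7. A weaker probe set of Psmb5 was highest in sample 2.

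Most beta subunits without a proteolytic site were highest in sample 1 too. Psmb2 had 1752, 435, 471, 527 and 639.8 in samples 1 to 5 (765 ± 557), where sample 1 was past Dixon's limit. Psmb3 had 2423, 1319, 1258, 1609.8 and 1464 (1615 ± 472), also highest in sample 1. The main probe set of Psmb4 had 3192, 2603, 2701, 2621 and 2015 (2626 ± 418), with its highest signal in sample 1 and its lowest in sample 5. Psmb1 was an exception. Its probe sets had 878, 755, 812, 1117 and 704 (853 ± 161) and 1003, 699.9, 774, 1156 and 1242 (975 ± 235), highest in samples 4 and 5.

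Above their own mean in sample 1 were 9 of 9 tested beta probe sets, against 47.7% of all tested probe sets, and 6 of 9 were highest there, against 22.3%. The weak beta probe sets that were not tested, of Psmb1 and Psmb4, lay below their mean in sample 1, by -1.17, -0.78 and -0.30 log2 units. The control 3' to 5' ratios and S100a8 were lowest in sample 1. Their part in the higher signals of the tested beta probe sets there was not tested.

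The ATPase ring showed the same lean towards sample 1. Psmc1 had 895, 649, 428, 409 and 564 in samples 1 to 5 (589 ± 197, SD, n = 5), and Psmc2 had 1305, 1071, 911, 801 and 842 (986 ± 206). Both were highest in sample 1 and lowest in sample 4. The first probe set of Psmc5 had 502, 313, 301, 297 and 317 (346 ± 87.3); samples 2 to 5 were nearly equal, and sample 1 was past Dixon's limit. Psmc3, a further ATPase of the ring, has 3 probe sets. The strongest had 1016, 768, 833, 608 and 805 (806 ± 146) and the next 761, 432, 422, 233 and 551 (479.6 ± 194), both highest in sample 1 and lowest in sample 4. The weakest had 373, 204, 315, 329 and 401 (324 ± 75.6), highest in sample 5 and lowest in sample 2.

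Psmc6 went another way, with 2083, 2953, 3837, 2922 and 1664 in samples 1 to 5 (2692 ± 846), highest in sample 3 and low in samples 1 and 5. Psmc4 had 53.9, 12.5, 130.3, 57.5 and 108 (72.5 ± 46.9), above the array median in samples 3 and 5. Its product is one of the ATPases of the ring, and 1 probe set measured it. Of the 7 tested ATPase probe sets, 5 were highest in sample 1 (22.3% of all tested) and 5 were lowest in sample 4 (9.15% of all tested). Both counts include more than 1 probe set of Psmc3. The weak probe sets of Psmc4 and Psmc5, which were not tested, lay below their mean in sample 1, by -0.31 and -0.55 log2 units. In sample 4 they deviated by -0.21 and 1.06.

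Among the other base subunits, Psmd1, a large scaffold protein, had 1796, 1203, 1244, 813 and 1265 in samples 1 to 5 (1264 ± 350.2, SD, n = 5). Psmd4, a receptor for ubiquitin chains, had 1169.7, 909, 579.9, 504 and 757 (784 ± 267). Sample 1 was highest and sample 4 lowest for both, as for Psmc1 and Psmc2. Psmd2, the other large scaffold, was measured by a probe set with 49.3, 32.7, 7.4, 58.0 and 76.2 (44.7 ± 26.1), below the array median in every sample.

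The lid subunits had their highest signals in different samples. Psmd14, the enzyme that cuts ubiquitin chains off substrates, had 854, 646, 1093, 846 and 849 in samples 1 to 5 (858 ± 158, SD, n = 5). Psmd7, its partner in the lid, had 1069, 989.9, 2017, 1096 and 1390.1 (1312 ± 422). Both were highest in sample 3 and lowest in sample 2. Psmd12, a scaffold subunit, had 231, 377, 601, 367 and 199 (355 ± 159), and Psmd8 had 796, 564, 966, 605 and 399 (666 ± 219), both highest in sample 3 and lowest in sample 5. Psmd13 followed the ATPases instead, with 1071, 492, 467, 423 and 748 (640.2 ± 272). Psmd6 had 1112, 918, 1014, 1213 and 953 (1042 ± 121) and Psmd3 had 511, 482, 446, 459 and 637 (507 ± 76.8), both scaffold subunits with samples close together. Highest in sample 3 were 4 of 9 tested lid probe sets, against 14.8% of all tested probe sets.

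Chaperones that help to build the base gave contrasting pictures. Psmd5 had 927, 718, 775, 781 and 939 in samples 1 to 5 (828 ± 99.2, SD, n = 5), among the smallest spreads of all members. Psmd9 averaged 535 ± 122. Psmd10, also known as gankyrin, had 52.2, 237, 184, 184 and 149 (161 ± 68.5), below the array median in sample 1 and above it in the others. Psmd10 and Psmd9 lay below their mean in sample 1, and Psmd5 lay above its own. There 6 of 7 tested ATPase probe sets lay above their mean, against 47.7% of all tested probe sets.

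The 2 activators with a probe set of their own lay above the array median on all arrays. Psme3, the activator found mainly in the nucleus, had 511, 186, 433, 244 and 629.6 in samples 1 to 5 (401 ± 185, SD, n = 5), with samples 2 and 4 low. Psme4, a large cap protein linked to histone turnover, had 417, 432, 827, 702 and 813 (638 ± 201), with samples 1 and 2 low. A probe set listed for both Psme2 and Psme2b had 616, 807, 666, 533 and 588, and a second one lay between 16.4 and 32.9, below the array median in every sample. Psme3ip1, which binds Psme3, averaged 728 ± 134, and Psmc3ip, a factor of meiotic recombination, had 85.1, 76.0, 11.8, 117 and 12.6 (60.5 ± 46.6), above the array median in sample 4 alone.

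Probe sets of a single gene did not always give the same picture. Several were listed for 6 genes, and in 5 of these they fell on different sides of the limit. For Psmb1, 2 of 3 were above it, and the other had 35.9, 160.0, 159.6, 87.6 and 42.4 in samples 1 to 5. For Psmb4, 1 of 3 was above it; the others had 45.8, 117, 95.2, 60.8 and 99.2, and 25.1, 60.6, 41.8, 2.33 and 2.42. The weaker probe set of Psmb5 had 104, 149.9, 66.4, 127 and 65.8, on both sides of the median. The sample order there, highest in sample 2, is not that of the stronger Psmb5 probe set. The weaker probe set of Psmc5 had 33.3, 18.8, 89.4, 102 and 15.0, and the weakest of Psmd11 had 62.0, 111, 165, 42.1 and 31.6. Psmc3 alone among the 6 had all of its probe sets above the limit. These weak second probe sets make up 6 of the 10 members that missed the limit. For Psmd11, a lid scaffold subunit, even those above the limit differed: one had 529, 427, 444, 349.6 and 399 in samples 1 to 5, the other 897, 472, 1341, 772 and 1574, which lay highest in sample 5. Probe sets with the suffix r, which the manufacturer designed with some of its selection rules dropped, were above the limit in 1 of 3 members, against 16.1% over the whole array. Those with the plain suffix were above it in 29 of 36, against 39.0%. With suffix f, s or i it was 8 of 9, against 36.0%, 37.7% and 22.7%. Among these are the only probe sets of Psma3, Psmb7 and Psmd12, the main ones of Psmb4 and Psmb5, and all those of Psmc3. Whether they also match other transcripts was not tested.

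**Figure D2:**
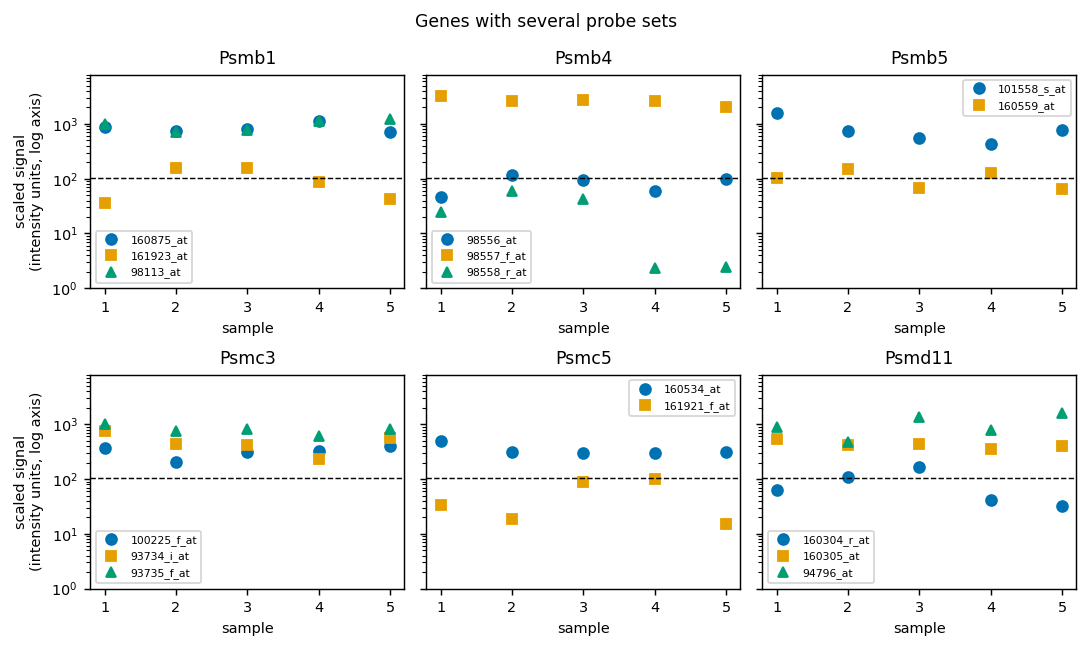
Scaled signal on a log axis in samples 1 to 5 for the 6 genes with several probe sets, 1 symbol per probe set, with the array median as a dashed line. In every panel except Psmc3, at least 1 probe set lies around or below the line while another lies above it in all samples.

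How far members varied was measured as the SD of log2 signal across the 5 samples, for probe sets whose mean log2 signal was above the median of all means. This filter kept 40 of 48 members and 6211 probe sets in all. The median SD was 0.38 among the members and 0.49 among all tested probe sets, and 25 of 40 members (62.5%) lay below the median of all tested. Among probe sets with a mean above the 75th percentile of means, which kept 38 members, it was 0.37 for members and 0.44 for all. The gap was smaller there, and the part of the higher signal of the members in it was not tested. The highest sample exceeded the lowest by a median of 1.95-fold among members and 2.30-fold among all tested probe sets. Without sample 1 the median SD was 0.33 among members and 0.43 among all. Members with the smallest SD were Psmd6 (0.16), Psmd5 (0.17), Psmd3 (0.21), Psmb7 (0.22) and the steadier Psmd11 probe set (0.22). Those with the largest were Psmd10 (0.85), Psmb2 (0.82), Psme3 (0.74), Psmb5 (0.70) and the other Psmd11 probe set (0.69).

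No member passed limma's test of variance against the trend of all tested probe sets. It called 0 of 40 members and 0 of 6211 probe sets (0%) at an adjusted p of 0.05, with 0 members and 303 probe sets at an unadjusted p under 0.05. The lowest adjusted p of a member was 0.956, for Psmb2, whose highest sample was 4.03 times its lowest. The test ranks each spread against those of other probe sets, and cannot show that the samples were alike.

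**Figure D3:**
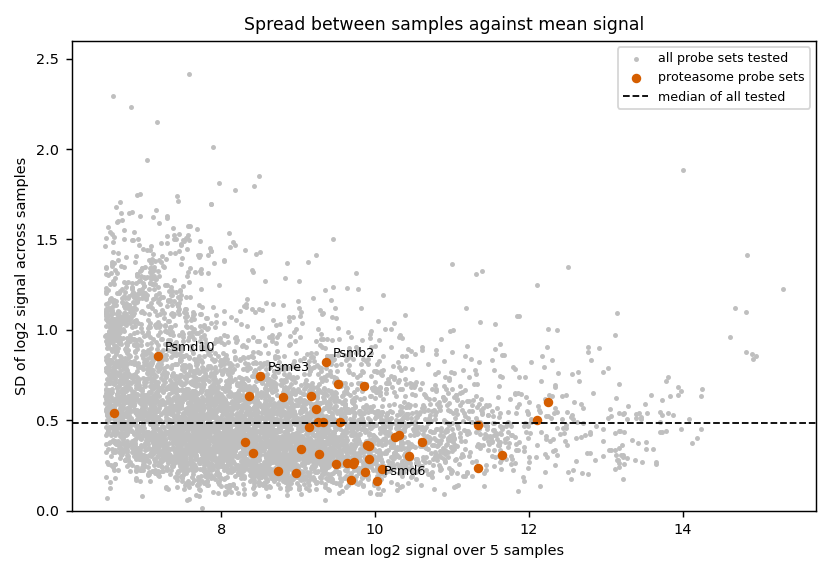
SD of log2 signal across the 5 samples against mean log2 signal, for 6211 tested probe sets (grey) and the 40 tested proteasome probe sets (orange), with the median of all tested, 0.49, as a dashed line. Proteasome points sit among the grey ones, 25 of 40 below the line, with Psmd10, Psmb2 and Psme3 as the 3 highest and Psmd6 as the lowest.

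The structural groups lay differently in single samples. For each probe set the deviation is its log2 signal minus its own mean over the 5 samples. The median deviation of all 40 members was 0.21 in sample 1, -0.06 in sample 2, -0.01 in sample 3, -0.09 in sample 4 and -0.02 in sample 5, against -0.04, 0.07, -0.00, 0.18 and -0.08 for all tested probe sets. Thus members lay above their mean most often in sample 1, in 31 of 40 cases (77.5%, against 47.7% of all tested), and 17 of 40 (42.5%) were highest there, against 22.3% of all tested. Among probe sets with a mean above the 75th percentile of means, the median in sample 1 was 0.24 for members and -0.09 for all.

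By group, the median deviation in sample 1 was 0.43 for the ATPases, 0.30 for the beta ring, 0.15 for the alpha ring and 0.02 for the lid. In sample 4 the ATPases lay at -0.28, while all tested probe sets lay at 0.18. The lid had its highest median in sample 3, at 0.37, where the beta ring lay at -0.32. The alpha ring had its lowest in sample 5, at -0.43. After quantile normalization these group medians had the same signs. Some of them moved when 1 sample was left out. Without sample 1 the beta ring lay at -0.11 in sample 3. The filter, run anew, then kept 11 of its probe sets in place of 9, so its members changed as well. The ATPases lay at -0.17 in sample 4 without sample 1, and the alpha ring at 0.01 in sample 1 without sample 5. With no filter on mean signal the beta ring lay at 0.17 in sample 1 and -0.18 in sample 3. The ATPases then lay at 0.35 in sample 1 and -0.21 in sample 4. Samples 3 and 4 had the highest 3' to 5' ratios of all 3 controls, and the part of RNA quality in these values was not tested. Deviations of a probe set sum to 0 over the samples.

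**Figure D4:**
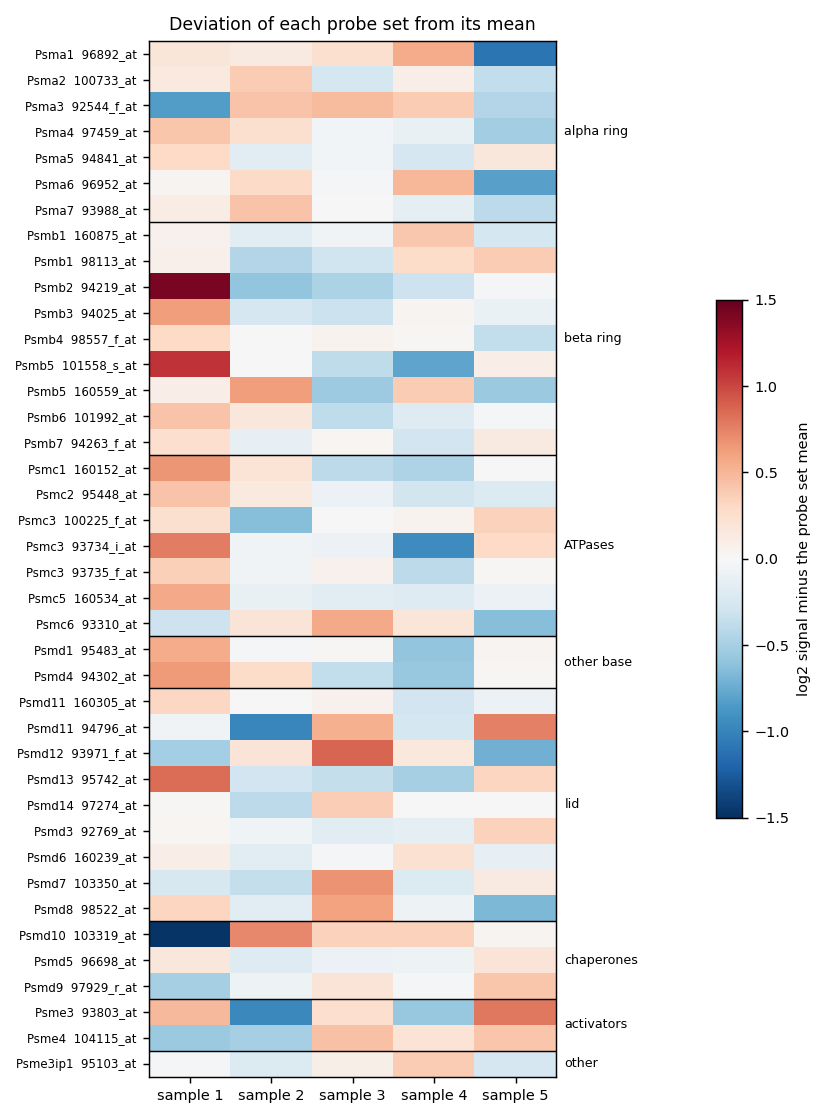
Deviation of log2 signal from the 5-sample mean for each of the 40 tested proteasome probe sets (rows, by structural group) in samples 1 to 5 (columns), red above and blue below the mean. The column of sample 1 is red in 31 of 40 rows, with Psmb2 and Psmb5 the darkest red, while Psmd10 and Psma3 are the darkest blue.

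**Figure D5:**
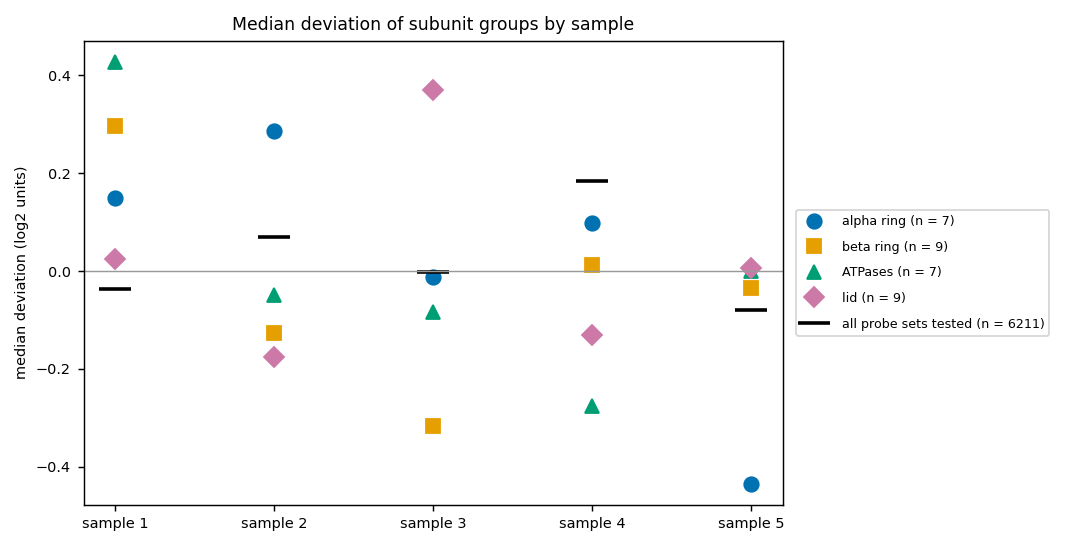
Median deviation in log2 units of the alpha ring, beta ring, ATPases and lid in each sample, with the median of all 6211 tested probe sets as a black bar. The ATPases are at 0.43 in sample 1 and -0.28 in sample 4, the lid is at 0.37 in sample 3 and the alpha ring at -0.43 in sample 5; the position of the alpha ring above 0 in sample 4 turned to -0.20 after quantile normalization.

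The genes left out of the set for their immune role also had a probe set above the array median on most or all arrays. Psmb8 had 1535, 1129.7, 635, 901 and 899.6 in samples 1 to 5, Psmb10 averaged 458 ± 113 (SD, n = 5) and Psme1, by its stronger probe set, 692 ± 174. Psmb9 had 598, 321, 52.2, 468 and 257, below the array median in sample 3. The deviation of Psmb9 minus that of Psmb6, the subunit it replaces, was 0.77, 0.13, -1.95, 1.03 and 0.01 log2 units in samples 1 to 5. The same difference was -0.43, 0.21, -0.24, 0.68 and -0.22 for Psmb8 minus Psmb5, and 0.16, 0.01, -0.41, 0.62 and -0.38 for Psmb10 minus Psmb7. With the stronger Psmb5 probe set, all 3 differences were highest in sample 4, and all were lower in samples 3 and 5 than in sample 2. The weaker Psmb5 probe set deviated by 0.10, 0.63, -0.55, 0.38 and -0.56 in samples 1 to 5. Psmb8 itself deviated by 0.65, 0.21, -0.62, -0.12 and -0.12. It lay above the weaker probe set in sample 1 and below it in sample 4, so the shared order depends on the Psmb5 probe set. These comparisons were picked after the values were seen.

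Other genes of the pathway were taken from a list of 29 genes, of which 18 had a probe set with a single symbol and 16 of these had a probe set above the median on all arrays, against 44.7% of all named genes. Pomp, which matures the core particle, had 1056, 1150.2, 1025, 1107 and 918 in samples 1 to 5, and Sem1, a small lid protein, averaged 4539 ± 422 (SD, n = 5). Both had a smaller SD of log2 signal (0.12 and 0.13) than any tested member. Of the alpha ring assembly genes, Psmg1 averaged 486 ± 64.6, Psmg4 278 ± 121 and Psmg2 103 ± 30.1, the last above the median on 3 arrays. The proteasome-bound deubiquitinases Usp14, by its stronger probe set, and Uchl5 averaged 462 ± 123 and 480.0 ± 138, both highest in sample 3. Vcp, the unfoldase that hands substrates to the proteasome, had 1257, 2325, 2904, 2466 and 2233 by its strongest probe set, lowest in sample 1. Nfe2l1 averaged 432 ± 62.6 by its stronger probe set, while a second probe set had 233, 69.6, 22.6, 111 and 209. Nfe2l2, a related factor of the oxidative stress response, had 798, 1964, 1661, 2389.7 and 886, low in samples 1 and 5. None of the 23 tested probe sets of this list passed limma's variance test (0 of 23, with 0 at an unadjusted p under 0.05). Their median deviation in sample 1 was 0.01, with 12 of 23 above their mean, against 0.21 and 31 of 40 for the proteasome members.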

How the data were processed

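Total RNA of 5 samples was measured on 1-colour probe-set arrays. The authors deposited linear intensity values, 1 per probe set and array; the software and scaling are not given in the sources used here. After removal of 66 control probe sets, arrays were scaled to a common median of 103.4. For log2 values a floor was set at 30.0, the 25th percentile of the scaled data; quoted signals precede this step. The number of arrays limits precision.

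Genes were named through the platform annotation, from probe sets with 1 symbol (10833 of 12422); all 38 member symbols matched the RefSeq table (GRCm38.p6). Spread was tested with limma 3.58.1 in R 4.3.3. It compares each variance with a robustly fitted F distribution whose scale follows mean signal, Benjamini-Hochberg adjusted over 6211 probe sets. The procedure was also run on simulated data with normal noise, which does not show how it performs on these arrays. Motifs were searched on both strands.

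Members, lists and tests were chosen with earlier results of these data known. All members could be named. Those given per sample were the catalytic genes, every Psmc gene, Psmd14, Psmd4, Psmd2, activators, members below the limit or past Dixon's limit, those with the 5 smallest and 5 largest SDs, and genes with several probe sets; others given per sample were chosen after their values were seen. Alternatives were other scalings, floors, filters and limits, 1 probe set per gene, and leaving out each sample.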

Additional observations from a re-analysis of the deposited data

Results flagged for a closer look

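Dixon's test at 95% pointed to a single sample in 3 of 48 member probe sets and in 1 of 28 probe sets of the pathway list. Chance alone flags about 1 in 20 such groups of 5. Among tested probe sets it did so in 3 of 40 members, 1 of 23 of the pathway list and 380 of all 6211 (6.12%), so the members' count is near that of the array. Psma1 was low in sample 5, with a signal of 268 against 628 to 842 in the other samples. Psmb2 was high in sample 1, with 1752 against 435 to 639.8, and Psmc5 was high there too, with 502 against 297 to 317. Ubqln2, which shuttles ubiquitinated proteins to the proteasome, was low in sample 1, with 101 against 266 to 338.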

How the results depend on the processing

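The count of members above the limit was 38 of 48 with the limit at the 40th percentile (42.9% of all probe sets) and 32 at the 75th (17.4%). It was 40 with 3 of 5 arrays sufficing (48.9%) and 38 to 39 without any 1 sample (37.5% to 38.3%). With 1 probe set per gene it was 34 of 38, against 44.5% of all genes. The variance test called 0 members under all alternatives, with 0 or 1 at an unadjusted p under 0.05. Among settings that tested 6211 probe sets, 78 to 341 of all had an unadjusted p under 0.05. With no filter 0 of all 12422 probe sets had an unadjusted p under 0.05, and the cause was not tested. The median SD of 0.38 (0.49 among all tested) became 0.46 with no filter (0.53). In the values as deposited, where sample 1 keeps its higher scale, it was 1.26 among members and 1.14 among all, so members no longer had the smaller median; without single samples it ran from 0.33 to 0.40. In the deposited values the median deviation of members was 2.13, -0.56, -0.44 and -0.73 in samples 1 to 4, but its difference from all tested probe sets was close to that after scaling (0.24 against 0.25 in sample 1, and -0.27 under both in sample 4; quantile normalization gave 0.29 and -0.33). With no filter on mean signal that difference was 0.13 in sample 1 and -0.10 in sample 4. Under the other alternatives the median deviation in sample 1 ran from 0.13 to 0.31, and without other single samples from 0.17 to 0.24. Medians of members in samples 2, 3 and 5 were near 0 and changed sign under some of them. Among the structural groups, checked by settings chosen after seeing the data, the beta ring in sample 4 (0.01) turned to -0.28 under quantile normalization, -0.19 with 1 probe set per gene, -0.09 with no filter or the 75th percentile filter, and below 0 without sample 2, 3 or 5. The alpha ring in sample 4 turned to -0.20 under quantile normalization. The ATPases in sample 2 (-0.05) turned to 0.14 with 1 probe set per gene, 0.12 without sample 1 and 0.03 without sample 5. Other group medians within 0.13 of 0 also changed sign under some settings. There was 1 group, so no paired analysis was possible. Without a detection call, low signals cannot be told from background.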
